A study of Arabidopsis thaliana with 12 samples.

Results

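Salicylic acid (SA) and systemic resistance regulators were examined in the transcriptome of Arabidopsis seedlings pretreated with a bacterial signal. They were chosen by name as PBS3, ICS1, EDS5, EDS1, PAD4, SARD1, NPR1, NIMIN1, FMO1 and ALD1, and 9 of these 10 names were found among the 36101 loci of both comparison tables. ICS1 was the exception, since the tables list it as EDS16, another symbol of the same gene (AT1G74710). It is described beside the 9 and counted with them as 10 genes.

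The study asked whether seedlings of the wild type Col-0 and of the mutant ali1, a single T-DNA insertion line in At5g14470 (ALI1), differ in their response to oxo-C14-HSL, a long-chain N-acyl homoserine lactone that Gram-negative bacteria use for quorum sensing. Whole seedlings grown for 2 weeks on sterile medium received either 6 µM oxo-C14-HSL or the solvent acetone for 3 days. All 4 groups (Col-0 acetone, Col-0 oxo-C14-HSL, ali1 acetone, ali1 oxo-C14-HSL) were then challenged with 100 nM flg22, a flagellin peptide that triggers pattern immunity, and harvested 2 h later, so the tables hold no group without flg22. Each group had 3 libraries, 12 in all. Expression is given as FPKM, the number of fragments divided by transcript length in kilobases and by library size, with 1 value per group over its 3 libraries. No value per library was at hand, so no spread between replicates, no standard error and no test can be given, and every difference below is a description of 2 group values without a replicate check. How deeply each library was sequenced was not stated in what was read here, so the counting error behind a value is unknown.

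SA is made in the plastid from chorismate, which ICS1 turns into isochorismate. EDS5 exports isochorismate to the cytosol, where PBS3 joins it to glutamate in a conjugate that breaks down to SA. The lipase-like proteins EDS1 and PAD4 and the transcription factor SARD1 raise the expression of this route, and NPR1 binds SA and drives the defence genes. ALD1 and FMO1 make N-hydroxypipecolic acid, the mobile signal of systemic acquired resistance.

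The 3 genes of SA synthesis and export were all higher with oxo-C14-HSL in the table labelled Col-0 and close to equal in that labelled ali1, so the 250 bases before the annotated start of each are shown (RefSeq TAIR10.1, gene strand, 5′ to 3′). PBS3 lies on chromosome 5 (chr5:4267456-4271064, plus strand, 4 to 5 exons in 3 transcripts), ICS1 on chromosome 1 (chr1:28070295-28074177, plus strand, 12 to 13 exons) and EDS5 on chromosome 4 (chr4:18185437-18189224, plus strand, 12 exons). The windows shown are chr5:4267206-4267455, chr1:28070045-28070294 and chr4:18185187-18185436. Capitals mark any match, on either strand, to TTGAC (the core of the W-box bound by WRKY factors), TGACG (the core bound by TGA factors, which can overlap the W-box core) or GAAATTT (a site reported for SARD1 and CBP60g).
PBS3: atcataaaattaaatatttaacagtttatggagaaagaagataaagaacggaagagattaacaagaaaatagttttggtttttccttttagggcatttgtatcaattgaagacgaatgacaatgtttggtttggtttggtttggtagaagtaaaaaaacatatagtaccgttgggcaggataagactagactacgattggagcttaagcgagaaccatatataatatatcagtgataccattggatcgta
ICS1: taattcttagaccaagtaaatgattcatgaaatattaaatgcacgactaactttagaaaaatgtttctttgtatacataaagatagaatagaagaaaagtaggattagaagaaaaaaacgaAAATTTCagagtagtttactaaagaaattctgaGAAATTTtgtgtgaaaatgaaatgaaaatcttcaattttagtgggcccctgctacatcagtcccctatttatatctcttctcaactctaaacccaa
EDS5: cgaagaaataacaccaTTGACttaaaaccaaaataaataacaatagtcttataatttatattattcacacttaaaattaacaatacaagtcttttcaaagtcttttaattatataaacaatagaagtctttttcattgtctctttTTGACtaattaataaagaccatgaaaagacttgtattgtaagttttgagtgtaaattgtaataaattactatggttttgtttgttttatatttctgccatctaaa
The PBS3 window held none of the 3 motifs. The ICS1 window held 2 matches to GAAATTT, 1 on the strand shown (96 bases before the start) and 1 on the other strand (129 bases before), while the EDS5 window held 2 matches to TTGAC on the strand shown, 234 and 105 bases before the start. Over the 10 genes, TTGAC was found before 3 (EDS5, EDS1 and SARD1), TGACG before 1 (SARD1) and GAAATTT before 3 (ICS1, FMO1 and ALD1). Of 27443 protein-coding genes, 44.9% held TTGAC, 18.6% TGACG and 12.5% GAAATTT in the same window. These matches describe letters in a window and not binding.

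Facts of the whole series bear on how far the labels can be read. ALI1 itself (AT5G14470, chr5:4662775-4664681) was listed at 15.0 FPKM in Col-0 acetone and 11.1 in Col-0 oxo-C14-HSL, against 27.4 and 30.1 in the groups labelled ali1, which goes against a mutant with less transcript. FPKM over a whole locus does not show whether a transcript is interrupted, and the genotype names are used here only as labels. The study characterized the line by PCR on DNA and cDNA, which was not analysed here. Were the tables exchanged, every difference given below for one genotype would belong to the other. Each sample's description also names the table of the other genotype, whereas the titles and the group names inside the tables agree, and the titles were followed. The 8 photosynthetic shoot markers, such as RBCS1A (9845 to 11099 FPKM), were high in every group. Of 9 root markers, PYK10 was at 371 to 505 FPKM, and the root hair genes COBL9, RSL4 and RHD6 were all at or under 0.0888 FPKM. Between these, SCR was at 34.9 to 39.7 FPKM, CASP1 at 6.85 to 15.4, SHR at 3.39 to 4.53 and NRT2.1 at 1.80 to 5.68. GL2 (457 to 513 FPKM) shares a merged locus with AT1G09927. The 8 flg22-induced markers, such as FRK1 (318 to 396 FPKM), were expressed in all 4 groups.

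PBS3 differed most. It was listed at 0.672 FPKM in Col-0 acetone, 3.27 in Col-0 oxo-C14-HSL, 3.65 in ali1 acetone and 3.83 in ali1 oxo-C14-HSL. The group that stood apart was Col-0 acetone, and the other 3 lay close together. With oxo-C14-HSL the PBS3 level was 4.86 times that with acetone in the table labelled Col-0 and 1.05 times in that labelled ali1. On the scale used from here on, log2((oxo-C14-HSL FPKM + 0.1)/(acetone FPKM + 0.1)), which understates changes of low genes, the differences were 2.12 and 0.071, a gap of 2.05 between the tables. Of the 3721 loci whose mean FPKM lay within 2-fold of that of PBS3 in the Col-0 table, the central 95% lay between -0.69 and 1.18, with a median of 0.19, and 0.672% were at or above PBS3. Of 4546 such loci in the ali1 table, 35.8% were at or above it.

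The contrast in PBS3 can also be read along the acetone groups, where its level in ali1 was 5.42 times that in Col-0. Those 2 values come from tables that were normalized in separate runs. Over 16846 loci with a mean of at least 1 FPKM, the median log2 ratio of ali1 acetone to Col-0 acetone was -0.044, so the scales of the tables were close at the median. No such ratio was computed for loci at the level of PBS3. In the Col-0 table the median difference with oxo-C14-HSL varied with level, 0.19 at that of PBS3 and -0.061 at that of ICS1. PBS3 belongs to the GH3 family of acyl acid amido synthetases and has relatives nearby on chromosome 5. Of these, AT5G13360 (14.8, 14.5, 14.2 and 13.6 FPKM, groups in the same order) and AT5G13370 (37.9, 31.3, 27.6 and 25.9) did not have the low value in Col-0 acetone, and AT5G13350 and AT5G13380 were listed at or near 0. Whole seedlings were sequenced, so more RNA per cell and more cells of a type that expresses a gene cannot be told apart. The summed FPKM of the root markers with a locus of their own was also lowest in Col-0 acetone (421, against 554, 450 and 464), most of it from PYK10 (371, 505, 391 and 405). Singly, 7 of 9 root markers were lowest there, 3 of them near 0 in every group, while CASP1 (10.0, 6.85, 9.02 and 15.4 FPKM) was not, and NRT2.1 had a difference of -1.28 in the ali1 table. The sum of the photosynthetic markers was lowest there too (17562, against 19064, 18734 and 17779), with RBCS1A the largest part (9845 of 17562), and only 2 of these 8 markers, RBCS1A and LHCB2.2, were lowest there. Their part in the PBS3 difference was not tested.

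**Figure D1:**
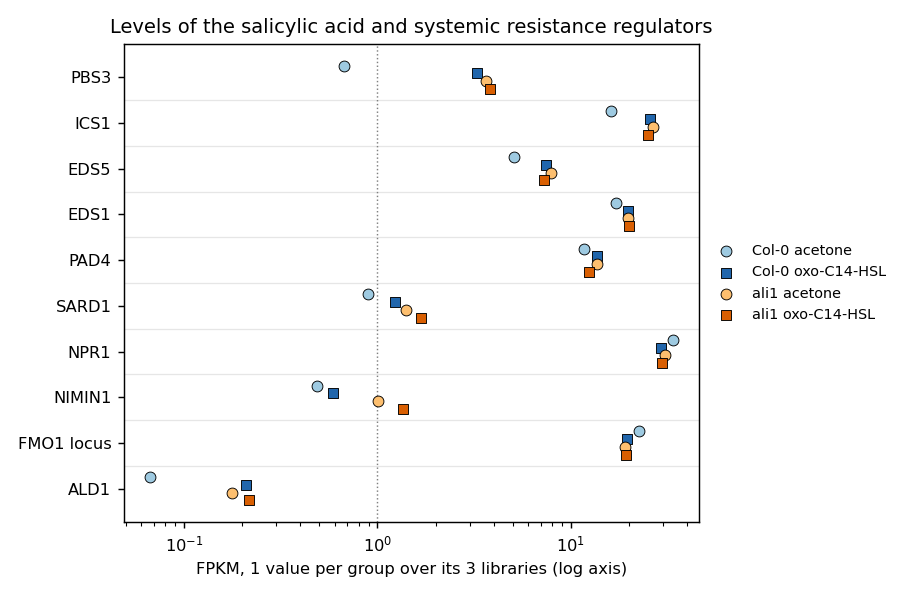
FPKM of the 10 genes (rows) on a log axis, 1 point per group over its 3 libraries, circles for acetone and squares for oxo-C14-HSL, with a dotted line at 1 FPKM. The Col-0 acetone point lies left of the other 3 for 8 genes, furthest for PBS3 (0.672 FPKM), and right of them for NPR1 and the FMO1 locus.

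ICS1, the enzyme of the committed step, shared the low group with PBS3 on a smaller scale. Its levels were 16.2 FPKM in Col-0 acetone, 25.8 in Col-0 oxo-C14-HSL, 26.5 in ali1 acetone and 25.1 in ali1 oxo-C14-HSL. Again Col-0 acetone was the low group and the other 3 lay within 25.1 to 26.5 FPKM. The log2 difference was 0.67 in the Col-0 table, a ratio of 1.59, and -0.082 in the ali1 table. ICS1 was under the 2-fold limit, and 1.33% of 5954 loci at a like level in the Col-0 table were at or above it.

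EDS5, the exporter of isochorismate, was listed at 5.11 FPKM in Col-0 acetone, 7.44 in Col-0 oxo-C14-HSL, 7.93 in ali1 acetone and 7.28 in ali1 oxo-C14-HSL. The difference was 0.53 in the Col-0 table and -0.12 in the ali1 table, and 8.32% of 5397 loci at a like level were at or above the first. The EDS5 locus in the tables runs 1384 bases past the gene and overlaps AT4G39040 and AT4G09785, so its value may include fragments of that neighbour.

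Upstream of synthesis, SARD1 (chr1:27744790-27749248, minus strand, 7 exons), a transcription factor that activates ICS1, was expressed at a low level. Its locus runs 141 bases past the gene and overlaps AT1G73790. It was listed at 0.890 FPKM in Col-0 acetone, 1.23 in Col-0 oxo-C14-HSL, 1.40 in ali1 acetone and 1.69 in ali1 oxo-C14-HSL. Its differences of 0.43 and 0.25 were both above 0, and in the Col-0 table the median of 3134 loci at that level was already 0.28. Its closest relative CBP60G, which shares this role, was expressed far higher, at 39.7, 46.0, 47.7 and 54.8 FPKM in the same order of groups, with differences of 0.21 and 0.20. For both factors Col-0 acetone was lowest and ali1 oxo-C14-HSL highest.

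EDS1 and PAD4, which form a dimer that relays signals from immune receptors, were expressed at similar levels in all groups. EDS1 (chr3:17755329-17758147, minus strand, 4 exons) was at 17.2 FPKM in Col-0 acetone, 19.8 in Col-0 oxo-C14-HSL, 19.7 in ali1 acetone and 19.95 in ali1 oxo-C14-HSL. PAD4 (chr3:19431095-19434450, plus strand, 2 exons) was at 11.6, 13.6, 13.7 and 12.4 FPKM. The log2 differences were small, 0.21 and 0.019 for EDS1 and 0.23 and -0.14 for PAD4, and all 4 lay inside the central 95% of loci at a like level. EDS1 has a near copy beside it, AT3G48080, which was listed at 0.818 to 1.09 FPKM, and how the counting shared fragments between the copies was not tested.

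Of the genes of SA perception, NPR1 (chr1:23852748-23855658, minus strand, 4 exons) had the highest level of the 10 genes in every group. It was at 33.6 FPKM in Col-0 acetone, 29.1 in Col-0 oxo-C14-HSL, 30.6 in ali1 acetone and 29.7 in ali1 oxo-C14-HSL, so Col-0 acetone was here the highest group. The differences were -0.21 and -0.042. The NPR1 locus runs 2176 bases past the gene and overlaps AT1G64270 and AT1G08667, whose part in the value cannot be split off. The other SA receptors NPR3 and NPR4, which repress defence genes when SA is low, were at 8.58 to 9.66 and 9.56 to 10.2 FPKM.

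NIMIN1 (chr1:497917-498539, minus strand, 1 exon) encodes a small protein that binds NPR1 and limits its output. It was listed at 0.488 FPKM in Col-0 acetone, 0.586 in Col-0 oxo-C14-HSL, 1.00 in ali1 acetone and 1.35 in ali1 oxo-C14-HSL. Both groups labelled ali1 were above both labelled Col-0. Its difference of 0.40 was the largest of the 10 genes in the ali1 table, where 9.25% of 3231 loci at a like level were at or above it. In the Col-0 table the difference was 0.22, under the median of 0.32 for loci at that level, and centring on that median turned it to -0.095.

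The 2 enzymes of N-hydroxypipecolic acid synthesis gave little to compare. ALD1 (chr2:5768417-5772266, plus strand, 10 exons), which makes the precursor of pipecolic acid from lysine, was listed at 0.0668 FPKM in Col-0 acetone, 0.209 in Col-0 oxo-C14-HSL, 0.178 in ali1 acetone and 0.217 in ali1 oxo-C14-HSL. All 4 values are far under 1 FPKM, and its Col-0 difference of 0.89 became 0.18 with a pseudocount of 1 and 1.51 with 0.01. FMO1 (chr1:6650476-6653195, minus strand, 5 exons), which hydroxylates pipecolic acid, shares a merged locus (chr1:6643942-6653195) with AT1G19240. That locus also overlaps AT1G19230. It was listed at 22.5, 19.5, 19.2 and 19.3 FPKM, with differences of -0.21 and 0.012 (the latter -0.0033 when centred on loci at a like level). How much of this belongs to FMO1 cannot be told from the tables.

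**Figure D2:**
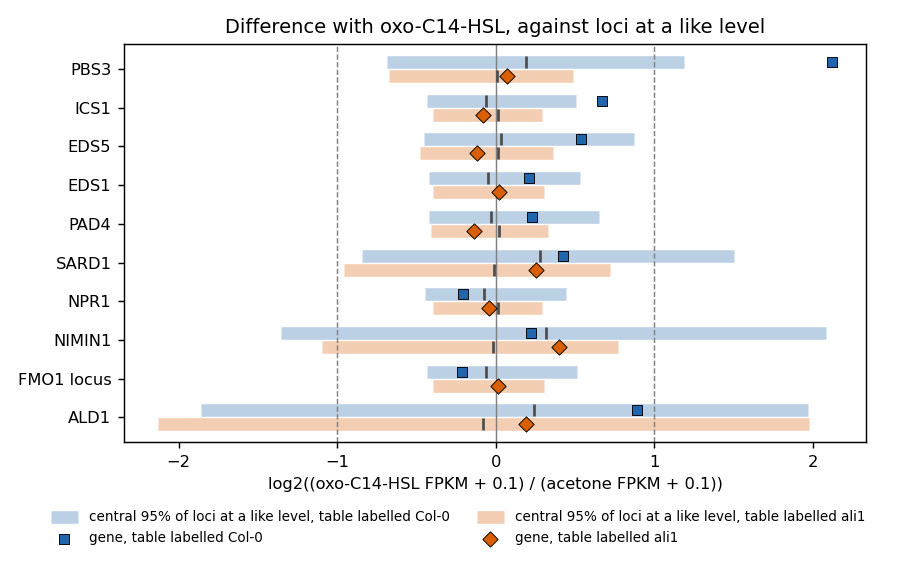
Log2 difference of oxo-C14-HSL against acetone for each gene (points) in the table labelled Col-0 (blue squares) and that labelled ali1 (orange diamonds), over bars that span the central 95% of loci within 2-fold of the gene's mean FPKM, with a tick at their median and dashed lines at 2-fold. PBS3 (2.12) and ICS1 (0.67) lie outside the Col-0 bars, and no gene lies outside the ali1 bars.

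Across the 10 genes, 8 were higher with oxo-C14-HSL in the Col-0 table and 6 in the ali1 table. With a mean of at least 1 FPKM these were 6 of 8 and 5 of 9, beside 46.8% and 53.2% of all loci with that mean. A mean of at least 1 FPKM was reached by 7 of the 9 genes found by name in the Col-0 table (all but NIMIN1 and ALD1) and by 8 in the ali1 table (all but ALD1), and by ICS1 in both. With that minimum, 1 of the 10 (PBS3) was at least 2-fold higher in Col-0, beside 1.58% of 16856 loci, and 0 were at least 2-fold lower, beside 0.415%. PBS3 reached the minimum through its Col-0 oxo-C14-HSL value (3.27 FPKM), since its Col-0 acetone value (0.672) was under 1 FPKM. None of the 10 (0) was 2-fold apart in either direction in the ali1 table, where 0.34% of 16766 loci were higher and 0.543% lower. The loci past 2-fold in the Col-0 table were 266 higher and 70 lower, which became 176 and 98 once differences were centred on loci at a like level, a setting added after the data were seen. The median log2 difference over all these loci was -0.017 in the Col-0 table and 0.010 in the ali1 table.

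The rank of Col-0 acetone among the 4 groups was also counted. Col-0 acetone held the lowest of the 4 values in 8 of the 10 genes (PBS3, ICS1, EDS5, EDS1, PAD4, SARD1, NIMIN1 and ALD1) and the highest in the other 2. Among 16846 loci with a mean of at least 1 FPKM, it was lowest in 25.6%, and 6 of the 8 genes with such a mean were among them (all but NPR1 and the FMO1 locus). That share was not matched for level, and 7 of 9 root markers were also lowest in Col-0 acetone. The 8 genes did not share a single pattern. For EDS1 and PAD4 the highest value was only 1.16 and 1.18 times the lowest. For NIMIN1 both groups labelled ali1 were above both labelled Col-0. The highest group differed, being ali1 acetone for ICS1, EDS5 and PAD4 and ali1 oxo-C14-HSL for PBS3, EDS1, SARD1, NIMIN1 and ALD1. The gap between the tables was 2.05 for PBS3, 0.75 for ICS1 and 0.66 for EDS5, against 0.37 for PAD4, 0.19 for EDS1, 0.17 for SARD1 (-0.12 when centred on loci at a like level), -0.16 for NPR1, -0.18 for NIMIN1 and -0.22 for the FMO1 locus. ALD1 had a gap of 0.70 at levels under 1 FPKM. Both tables use separate control groups, and with 1 value per group the difference between them was not tested.

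Because FPKM is a level per length, the genes can also be ranked within a group. In Col-0 acetone the level fell from NPR1 over the FMO1 locus, EDS1, ICS1, PAD4 and EDS5 to SARD1, PBS3, NIMIN1 and ALD1. In Col-0 oxo-C14-HSL, ICS1 (25.8 FPKM) stood above EDS1 (19.8) and the FMO1 locus (19.5), and PBS3 (3.27) stood above SARD1 (1.23). ICS1 and PBS3 also stood above the same genes in both groups labelled ali1, acetone included. Without a spread over libraries it cannot be said which neighbours in these orders differ, and the levels of NPR1, EDS5, SARD1 and the FMO1 locus may include fragments of neighbouring genes.

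The wider pathway was described by 8 lists of 76 names, of which 71 were found (58 under their own symbol and 13 under another name). The 10 genes are themselves on these lists. Of 57 genes with a mean of at least 1 FPKM in the Col-0 table, 4 were at least 2-fold higher (PBS3, WRKY70, PR5 and AED1) and 0 lower, beside 1.58% and 0.415% of all loci. PBS3 and WRKY70 were under 1 FPKM in Col-0 acetone (0.672 and 0.717) and reached the minimum through the oxo-C14-HSL group. The median difference of the 57 was -0.054. Of the 57, 27 (47.4%) were above 0, near the 46.8% of all loci. Of 58 genes in the ali1 table, 0 were 2-fold apart, with a median of 0.011 and 31 above 0. Col-0 acetone was the lowest group in 17 of the 57, near the 25.6% of all loci.

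The synthesis and export list stood at a median of 0.60 in Col-0 and -0.0057 in ali1 over 4 genes. All 4 were above 0 in Col-0, beside 46.8% of all loci with a mean of at least 1 FPKM. These 4 include PBS3, ICS1 and EDS5, described above, so the median largely restates them. The list further held EPS1, which speeds the last step to SA (3.52, 3.77, 4.32 and 4.68 FPKM, groups in the same order as above). It also held ICS2, the minor copy of ICS1 (0.204, 0.511, 0.324 and 0.474 FPKM, under the minimum). EPS1, the gene after PBS3 in the route, had a difference of only 0.094 in Col-0 beside 2.12 for PBS3. The transcription regulators had medians of 0.040 and 0.064 over 8 genes. Among them WRKY46 had the largest difference in Col-0, 0.75, beside 0.13 in ali1, from 5.78, 9.78, 12.5 and 13.7 FPKM. The EDS1 module and its helper receptors had medians of 0.057 and 0.0089 over 6 genes.

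SA perception and cofactors, the list that holds NPR1 and NIMIN1, went the other way in the Col-0 table, with 1 of 10 genes above 0 and a median of -0.099, against 7 of 11 and 0.015 in the ali1 table. No gene of that list reached 2-fold in either table. The negative regulators of SA defence had medians of -0.11 and -0.014 over 11 genes, with 3 above 0 in each table, beside the same shares. Centred on loci at a like level, the Col-0 median was -0.048 for the negative regulators and -0.13 for the perception list. Genes of SA modification and breakdown had medians of 0.021 and -0.071 over 8 genes.

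The SA-responsive outputs held 11 genes, of which 4 reached the minimum level, with medians of 0.60 in Col-0 and 0.32 in ali1. WRKY70, a transcription factor that SA induces, was at 0.717 FPKM in Col-0 acetone, 1.74 in Col-0 oxo-C14-HSL, 1.05 in ali1 acetone and 1.49 in ali1 oxo-C14-HSL, with differences of 1.17 and 0.46. PR5, a thaumatin-like protein and marker of SA defence, was at 8.38, 18.0, 19.2 and 14.1 FPKM, with differences of 1.09 and -0.45. PR5 thus shared with PBS3 a single low group, Col-0 acetone, whereas WRKY70 was higher with oxo-C14-HSL in both tables. PR1, the classical marker of SA defence, was listed at 0 in all 4 groups. WRKY62, with 0.0824, 0.648, 0.725 and 0.466 FPKM, was under the minimum. GRX480, which reached the minimum, went against PR5 in both tables, with differences of -0.44 in Col-0 and 0.41 in ali1. Its highest group was Col-0 acetone (2.89 FPKM, against 1.68 to 2.27 in the other groups). WRKY18, which was well over the minimum (21.6 to 25.3 FPKM), had differences of 0.11 and 0.23. LURP1, under the minimum, had differences of -0.47 and -0.51. Of all 11 genes, 8 were above 0 in Col-0 and 2 below (GRX480 and LURP1). Of all 36057 loci kept, at any level, 13136 were above 0 in Col-0 and 11807 below.

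The list of N-hydroxypipecolic acid and long-distance signals had medians of -0.33 and -0.067 over 6 genes. Over all 8 genes found, which adds ALD1 and DIR1 at levels under 1 FPKM, the medians were -0.015 and 0.0041. AED1 (AT5G10760), an aspartyl protease secreted to the apoplast, was at 1.29, 3.07, 1.55 and 2.35 FPKM, with differences of 1.19 and 0.57. AZI1, a lipid transfer protein of systemic priming, was the most abundant gene of the lists at 4022, 2674, 4218 and 3532 FPKM, and its difference was -0.59 in Col-0 and -0.26 in ali1. Its relative EARLI1 was at 1816, 1220, 2177 and 1672 FPKM. Both were lowest in Col-0 oxo-C14-HSL, the group in which PBS3 was near its higher levels.

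**Figure D3:**
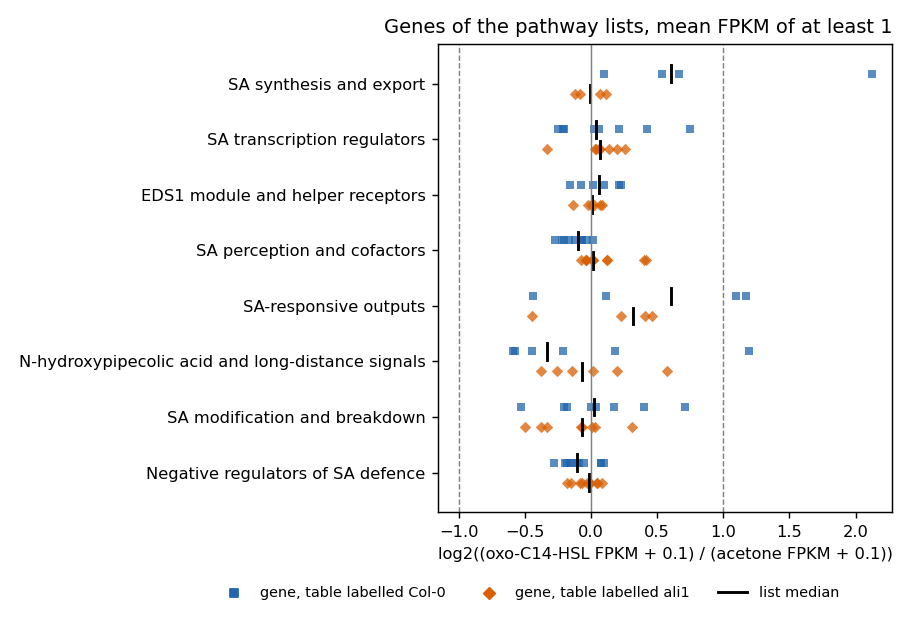
Log2 difference of oxo-C14-HSL against acetone for each gene of the 8 pathway lists with a mean of at least 1 FPKM, in the table labelled Col-0 (blue squares) and that labelled ali1 (orange diamonds), with black ticks at the list medians and dashed lines at 2-fold. The 4 Col-0 points right of 1 are PBS3, PR5, WRKY70 and AED1, and the medians of the synthesis list lie at 0.60 and -0.0057.

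The responses of marker genes were set beside these values. The flg22-induced markers had medians of -0.32 in Col-0 and -0.088 in ali1, with 1 of 8 and 2 of 8 above 0, beside 46.8% and 53.2% of all loci, and none of the 8 was 2-fold apart in either table. FRK1 was at 396 FPKM in Col-0 acetone, 318 in Col-0 oxo-C14-HSL, 395 in ali1 acetone and 364 in ali1 oxo-C14-HSL. The photosynthetic markers had medians of 0.12 and -0.069, with 7 of 8 and 1 of 8 above 0. The root markers with a mean of at least 1 FPKM had medians of 0.22 and -0.012 over 6 genes.

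The loci most like PBS3 were found over the pair of differences (Col-0 and ali1) by Euclidean distance among 15134 loci with 1 gene name and a mean of at least 1 FPKM in both tables. They were U2.5 (a distance of 0.349), AT1G23110 (0.439), AT5G55450 (0.529), AT1G70475 (0.575) and AT5G42530 (0.576). AT5G55450 is annotated as a member of the lipid-transfer protein superfamily and was at 2.38, 8.29, 3.77 and 5.20 FPKM. AT5G42530, annotated as an uncharacterized protein, was at 5.60, 16.6, 11.0 and 12.0 FPKM. None of these 5 is on the pathway lists. For NIMIN1, which had the largest difference of the 10 genes in the ali1 table, the nearest of 15135 loci were AT1G45110, AT3G06890, TOM7-2, CRK15 and SPL1, at distances of 0.0134 to 0.0231, in a region of small differences where many loci lie close together.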

How the data were processed

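RNA of whole seedlings was sequenced after oligo-dT enrichment on a DNBseq platform. The authors aligned the reads with RNA STAR, assembled and merged transcripts with Cufflinks 2.2.1.0 and compared oxo-C14-HSL with acetone in 1 Cuffdiff 2.2.1.5 run per genotype. The labels name the build TAIR10. The deposited FPKM values are 1 pooled estimate per group, normalized within each run, and no counts or depths are given. The deposited tables also hold fold changes, test statistics, p-values and q-values of the authors' own comparison, which were not used. The study describes the 3 libraries of a group as independent replicates.

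Groups followed the sample titles. Plastid loci marked in the ali1 table as having too many fragments to estimate, 44 in all, were dropped from both tables. From the FPKM values log2 ratios were computed with a pseudocount of 0.1 FPKM, and a locus was counted as higher or lower at a mean of at least 1 FPKM and at least 2-fold. Gene positions, synonyms and sequences came from RefSeq TAIR10.1, whose chromosome names equal those of the tables. The 10 genes and all lists were chosen with earlier results of these data known. Genes named were the 10, up to 3 genes past the limit per list, ALI1 and the 5 loci nearest to PBS3 and to NIMIN1, and any other list gene, marker or neighbour was named after its values were seen. The fold calculation and its limit were checked only on known folds planted, without noise, in the Col-0 acetone values. The lists, the loci at a like level and the sequence windows were not checked that way. Python 3.11.15, numpy 2.4.6, pandas 2.3.3 and matplotlib 3.10.9 were used. Alternatives changed the pseudocount, minimum, fold, centring and merged loci.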

Additional observations from a re-analysis of the deposited data

How the results depend on the processing

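Of 312 values recomputed under 7 alternatives, 296 stayed on the same side of their limit and 0 passed it in the other direction. Dropping the minimum or the merged loci cannot change a gene's own difference, and most gene differences and list medians lay far under the limit. Staying on the same side was thus largely fixed in advance, and a change of sign could count as the same side. The PBS3 difference ranged from 1.35 to 2.26 in Col-0, and its gap between the tables from 1.29 to 2.19. Of 30 gene differences, 27 kept their sign. The exceptions, all with centring on loci at a like level (added after the data were seen), were NIMIN1 in Col-0 (-0.095), the FMO1 locus in ali1 (-0.0033) and the SARD1 gap (-0.12). With a pseudocount of 0.01 ALD1 came to 1.51 in Col-0, with a gap of 1.24. Of the list medians, 4 near 0 in the ali1 table changed sign. Those of the EDS1 module (-0.0043) and SA perception (-0.00040) did so with centring at a like level. That of the EDS1 module also did so with centring on the median over all loci (-0.0015). Those of synthesis (0.071) and N-hydroxypipecolic acid (0.0041) changed sign with no minimum. At a fold of at least 1.5, genes past the limit in Col-0 numbered 2 (PBS3 and ICS1) in place of 1.

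Counts over all loci moved with the limits. In Col-0 the loci higher numbered 266 and became 1078 at a fold of 1.5, 950 with no minimum, 93 with a pseudocount of 1 and 176 with centring at a like level, and the 70 lower became 295, 370 and 40 under the first 3. In ali1 the 57 higher became 172, 361 and 34, and the 91 lower became 357, 566 and 54. No paired analysis was possible because the tables hold no value per library, and for the same reason no library was left out. Values under 1 FPKM, as for ALD1 and for PBS3 and WRKY70 in Col-0 acetone, rest on an unknown number of fragments.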
